A study of Saccharomyces cerevisiae BY4741 with 12 samples.

Results

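A set of yeast genes of mating and cell agglutination was followed on both strands in cells that lack Set2 or carry altered forms of it. The 10 genes are MFA1 (YDR461W), STE2 (YFL026W), STE6 (YKL209C), BAR1 (YIL015W), AGA1 (YNR044W), AGA2 (YGL032C), SAG1 (YJR004C), FUS1 (YCL027W), FIG1 (YBR040W) and FIG2 (YCR089W). They were chosen by name out of 6632 annotated rows of the expression sheet, but with earlier results of these data known. All 10 were above 0 in every strain. Of the 777 antisense transcripts that the authors list as higher upon deletion of SET2, 4 are paired with these genes, with 1 each opposite STE2, SAG1, AGA1 and FIG2. The other 6 genes have no listed antisense transcript. Polyadenylated RNA was sequenced with its strand kept in 4 strains of the BY4741 background, with 3 libraries labelled for each strain and 12 in all. The WT has the SET2 gene. The set2Δ strain has a SET2 deletion and, by the study's methods, the empty pRS415 plasmid. In the set2-Y149F and set2-Y236F strains the same deletion is combined with a mutant SET2 on pRS415, and the study describes Y149F as a form that loses H3K36me2 and part of H3K36me1 but not H3K36me3, and Y236F as a form without H3K36me3 that keeps the lower states. The cultures, in YPD or SD medium, which the sources do not assign to strains, were kept at 30 °C from an OD600 of 0.2 until harvest at 0.8, and no treatment was given.

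Haploid budding yeast has a MATa and a MATα mating type. Each type secretes its own pheromone and carries the receptor for that of the other, and binding of pheromone to the receptor acts through a G protein and a MAP kinase cascade on the transcription factor Ste12. Ste12 binds pheromone response elements in promoters and turns on genes of adhesion, polarized growth and cell fusion. In MATα and diploid cells the a-specific genes are shut off by the α2 repressor together with Mcm1. Set2 is the H3K36 methyltransferase that travels with elongating RNA polymerase II, and the methylation keeps cryptic promoters inside genes silent. Without mating partners, a pure MATa culture expresses a-specific genes at their basal level, and most pheromone-induced genes at a low level.

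The levels are FPKM, which scale the number of fragments to transcript length and to library depth, with 1 mean per strain. No value per library was used here and the column names do not say how many libraries each mean covers, so no SD and no replicate test can be given for any difference in this text. A difference is called higher or lower when 2 means differ at least 2-fold on log2(FPKM + 1), a scale that shrinks the differences of genes with few reads. All 3 mutants were compared with the same WT mean. A deposited mean scaled read count, which followed the mean FPKM of all 4 strains multiplied by coding length (SD of the log2 deviation 0.03 over 5363 genes), gave the reads behind each gene. It ranged from 405 per library for FUS1 to 4346 for STE2 in 9 of the genes, and was 11.3 for FIG1.

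Levels of marker genes were those of MATa cells. Read as a check of the strains, SET2 was at 29.1 FPKM in WT cells, 0.190 for set2Δ, 253 for set2-Y149F and 271 for set2-Y236F. The point mutants thus differ from the WT in the level of SET2 RNA as well as in the form of Set2, and the 2 cannot be told apart here. LEU2, which is deleted in BY4741 and is carried by pRS415, stood at 3209 FPKM in WT cells and between 1775 and 6023 in the mutants. The study's methods name no plasmid for the WT, so its LEU2 level conflicts with that description, and the source of this RNA is not known. Of 7 a-specific genes, MFA2, the second gene of the a-factor precursor, was the most abundant, at 2123, 2043, 1899 and 1294 FPKM in WT cells, set2Δ, set2-Y149F and set2-Y236F. Of 4 α-specific genes, MF(ALPHA)1, the main α-factor gene, stood between 0.539 and 0.687 FPKM over the strains. MF(ALPHA)2 was higher in all 3 mutants, at 1.02 FPKM in WT cells, 4.31 for set2Δ, 3.09 for set2-Y149F and 4.62 for set2-Y236F. It rested on 23.3 scaled reads per library. STE3, the a-factor receptor gene of MATα cells, was at 4.61, 0.959, 3.11 and 4.77 FPKM, with strains in that order, a log2 difference of -1.52 in set2Δ. The remaining α-specific gene, SAG1, one of the 10, stood higher, between 16.7 and 20.7 FPKM. Summed over the 7 a-specific genes the level was 3854 FPKM in WT cells, 3951 for set2Δ, 3641 for set2-Y149F and 2637 for set2-Y236F, and over the 4 α-specific genes 22.9, 26.6, 24.0 and 27.2. MFA1 and MFA2 make up most of the a-specific sum, and SAG1 most of the α-specific sum. In set2-Y236F, STE2, STE6 and BAR1 were also below the WT. AGA2 was level there (246 FPKM in the WT and 245), and ASG7 was higher (30.9 and 43.0). The effects of the plasmid, of the higher SET2 RNA level in the point mutants and of the medium on these means, or on those below, were not tested.

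The sequences shown are those on which the results below turn. Positions are in the R64 assembly of RefSeq, the reference that corresponds to sacCer3. Of the 774 listed antisense transcripts with a sense gene in RefSeq, 773 overlap it on the opposite strand. Promoters are given from 250 bases before the start codon to 50 bases from it on, on the strand of the gene. In STE6 (chrXI:46246-46545, minus strand) the capitals mark the only match to CATGTNATT, the letters of an α2 binding element, whereas in AGA1 (chrXIV:703449-703748, plus strand) they mark the match to TGAAACA, the pheromone response element. The window of FIG2 (chrIII:267184-267483, plus strand) has no match to either. Both strands were searched. The 2 lines named antisense are read along the antisense strand, from 200 bases before the assembled 5′ end of the transcript to 50 bases into it, at chrIII:269601-269850 for FIG2 and chrVI:83550-83799 for STE2, both on the minus strand.
STE6 promoter: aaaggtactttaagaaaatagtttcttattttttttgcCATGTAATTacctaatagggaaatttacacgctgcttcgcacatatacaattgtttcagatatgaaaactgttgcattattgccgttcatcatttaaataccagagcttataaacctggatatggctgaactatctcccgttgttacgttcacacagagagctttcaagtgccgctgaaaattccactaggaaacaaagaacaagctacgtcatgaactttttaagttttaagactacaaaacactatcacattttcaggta
AGA1 promoter: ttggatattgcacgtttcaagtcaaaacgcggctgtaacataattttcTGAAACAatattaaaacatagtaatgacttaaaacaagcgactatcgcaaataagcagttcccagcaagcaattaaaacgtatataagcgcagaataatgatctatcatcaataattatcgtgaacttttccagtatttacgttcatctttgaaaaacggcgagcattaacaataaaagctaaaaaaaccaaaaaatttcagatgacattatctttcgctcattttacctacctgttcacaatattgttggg
FIG2 promoter: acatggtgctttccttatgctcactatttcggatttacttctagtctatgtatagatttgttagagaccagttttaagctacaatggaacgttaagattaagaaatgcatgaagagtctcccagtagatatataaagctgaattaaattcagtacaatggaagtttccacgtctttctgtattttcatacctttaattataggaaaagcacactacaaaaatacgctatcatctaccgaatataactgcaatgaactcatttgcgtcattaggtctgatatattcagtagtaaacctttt
FIG2 antisense start: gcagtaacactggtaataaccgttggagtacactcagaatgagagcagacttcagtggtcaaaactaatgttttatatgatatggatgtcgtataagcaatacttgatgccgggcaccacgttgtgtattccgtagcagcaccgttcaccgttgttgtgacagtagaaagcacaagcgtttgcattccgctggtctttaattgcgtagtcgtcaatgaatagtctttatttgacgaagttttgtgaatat
STE2 antisense start: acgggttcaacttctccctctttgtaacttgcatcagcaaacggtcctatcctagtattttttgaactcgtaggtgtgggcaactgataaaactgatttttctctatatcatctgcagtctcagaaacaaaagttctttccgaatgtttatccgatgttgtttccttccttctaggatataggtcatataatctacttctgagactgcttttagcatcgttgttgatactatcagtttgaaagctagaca

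TGAAACA was found in the promoter windows of 6 of the 10 genes, where 450 of 6001 protein-coding genes in RefSeq, or 7.5%, have it on either strand. It lay 187 and 160 bp upstream of the start codon in FUS1, and once in STE2 (197 bp), STE6 (161), BAR1 (184), AGA1 (202) and AGA2 (199). The windows of MFA1, SAG1, FIG1 and FIG2 had none. CATGTNATT was found in STE6, 212 bp upstream, and in BAR1, 243 and 212 bp upstream, against 1.35% of all windows. These are matches of letters and not mapped sites, and other forms of either element were not searched.

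The order of the sense levels spanned MFA1, the gene of the a-factor precursor, at 1163 FPKM in WT cells, down to FIG1 at 0.570. Between them in the WT came AGA2 (246 FPKM), STE2 (183), BAR1 (59.9), STE6 (48.9), AGA1 (25.6), SAG1 (16.7), FUS1 (13.7) and FIG2 (12.7). As FPKM is scaled to length, these levels can be set side by side between genes, though less surely for MFA1 and AGA2. Their coding regions are only 111 and 264 bp long, and the effect of reads that cross the ends of such short regions was not tested. MFA1 stood above 98.1% of the annotated rows in the WT or level with them, and FIG1 above 4.60%. The coding regions are chrIV:1385176-1385286 for MFA1, chrXI:42423-46295 for STE6, chrIX:322342-324105 for BAR1, chrVII:436570-436833 for AGA2, chrIII:71803-73341 for FUS1 and chrII:316968-317864 for FIG1, with STE6 and AGA2 on the minus strand, and those of the other 4 are given with their antisense transcripts. SAG1, FUS1 and FIG2 lay within a few FPKM of each other in the WT, and no spread between libraries is known by which to order them. Over the 4 strains, the highest mean of a gene was 1.24 times the lowest for SAG1, 2.07 times for AGA1 and 3.17 times for FIG2.

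**Figure D1:**
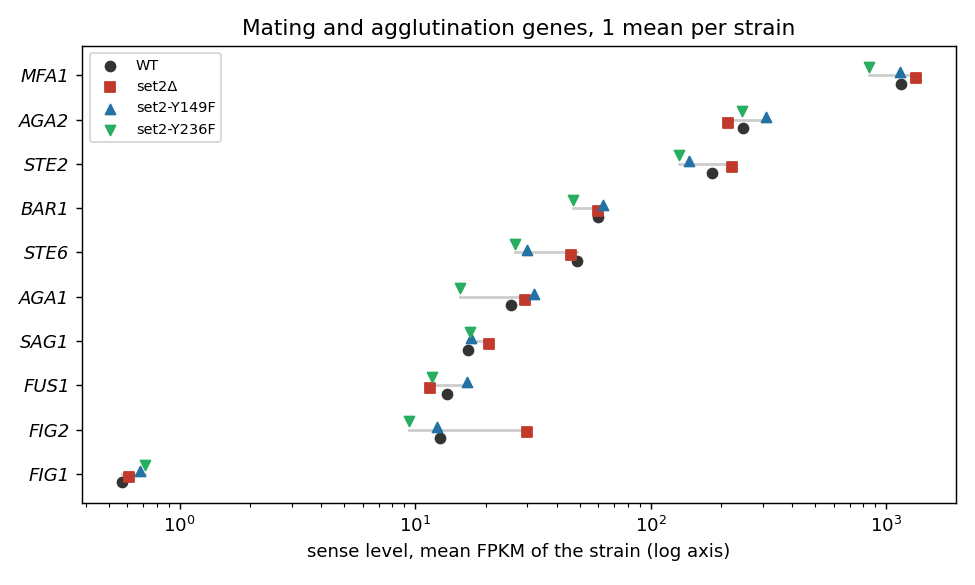
Sense level of each of the 10 genes as the mean FPKM of each strain, on a log axis, with genes in the order of the WT level and a grey line from the lowest to the highest strain. FIG2 in set2Δ (29.8 FPKM) and AGA1 in set2-Y236F (15.5) stand farthest from the other strains of their gene, while SAG1 and FIG1 barely spread.

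The pheromone gene and the receptor gene were close to the WT in set2Δ and lower in set2-Y236F. MFA1 was at 1163 FPKM in WT cells, 1338 for set2Δ, 1150 for set2-Y149F and 849 for set2-Y236F. The set2-Y236F mean was thus 0.730 times that of the WT, and MFA2, the other a-factor gene, had a log2 difference of -0.71 there. STE2, the α-factor receptor of MATa cells, stood at 183, 222, 146 and 132 FPKM, with strains in that order. Its log2 differences from the WT were 0.28 for set2Δ, -0.32 for set2-Y149F and -0.47 for set2-Y236F, all within 2-fold. In RNA from whole cultures, less RNA per cell cannot be told apart from fewer cells that express a gene.

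STE6 was the gene of the set with the lowest means in the point mutants relative to the WT. It encodes the ABC transporter that exports a-factor. The means were 48.9 FPKM in WT cells and 46.0 in set2Δ, but 30.0 with set2-Y149F and 26.6 with set2-Y236F. The log2 differences were -0.09, -0.69 and -0.85, or 0.614 and 0.544 times the WT mean in the point mutants, so STE6 did not reach a 2-fold difference. Of all annotated rows, 6.44% lay lower than STE6 with set2-Y149F and 3.06% with set2-Y236F. Set directly against each other, set2Δ stood 0.60 above set2-Y149F and 0.77 above set2-Y236F on log2(FPKM + 1). BAR1, the secreted protease that degrades α-factor, was even across 3 strains, at 59.9, 59.98 and 63.0 FPKM in WT cells, set2Δ and set2-Y149F, and was at 46.9 in set2-Y236F.

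The genes of the a-agglutinin subunits differed in the order of the strains. Aga1 anchors the complex in the cell wall and Aga2, joined to it by disulfide bonds, binds the α-agglutinin. AGA1 was at 25.6 FPKM in WT cells, 29.2 for set2Δ, 32.0 for set2-Y149F and 15.5 for set2-Y236F, so set2-Y236F was the lowest strain and the other 3 lay close together. AGA1 was the only one of the 10 genes with a 2-fold difference between the point mutants, 2.07 times higher in set2-Y149F, at a log2 difference of 1.00 that lay at the threshold and was 0.99 once the strains were scaled to the same median. In the whole sheet 20 of 6632 rows, or 0.302%, were 2-fold higher in set2-Y149F than in set2-Y236F, and 0.317% were 2-fold lower, with 0 of the 10 among these. AGA2 was at 246, 213, 309 and 245 FPKM in WT cells, set2Δ, set2-Y149F and set2-Y236F, and was thus lowest in set2Δ and level with the WT in set2-Y236F. SAG1, the gene of the α-agglutinin itself, which belongs to MATα cells, was at 16.7, 20.7, 17.2 and 17.1 FPKM.

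FIG2 had the only 2-fold sense difference from the WT among the 10 genes. It encodes a cell wall adhesin of mating cells related to Aga1. The means were 12.7 FPKM in WT cells, 29.8 for set2Δ, 12.4 for set2-Y149F and 9.40 for set2-Y236F. Only set2Δ stood apart, by a log2 difference of 1.17 from the WT, 1.20 from set2-Y149F and 1.57 from set2-Y236F. Against the WT, 144 of the other annotated rows had a larger difference, but only 37 against set2-Y149F and 14 against set2-Y236F. With FPKM, 1 of 10 genes was thus 2-fold higher in set2Δ, beside 2.88% of all rows, and 0 of 10 were 2-fold lower, beside 1.19%. In set2-Y149F, 0 of 10 were higher, beside 3.57% of all rows, and 0 lower, beside 2.07%. In set2-Y236F these were 0 beside 3.47% and 0 beside 1.87%. FIG2 was also the only one of the 10 that was 2-fold higher in set2Δ than in either point mutant, where 1.07% of all rows were so in each of these comparisons. In none of the 10 was set2Δ 2-fold below set2-Y149F (1.76% of rows) or set2-Y236F (1.91%). With a pseudocount of 10 in place of 1, the log2 difference of FIG2 from the WT was 0.81 and no longer passed.

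The other pheromone-induced genes of the set, FUS1 and FIG1, did not share this pattern. FUS1, a membrane protein needed for fusion of mating cells, was at 13.7 FPKM in WT cells, 11.6 for set2Δ, 16.6 for set2-Y149F and 11.9 for set2-Y236F. FIG1, a membrane protein that supports calcium entry during mating, was at 0.570, 0.610, 0.680 and 0.712 FPKM, and at 11.3 scaled reads per library no difference of this size could be told from counting error.

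**Figure D2:**
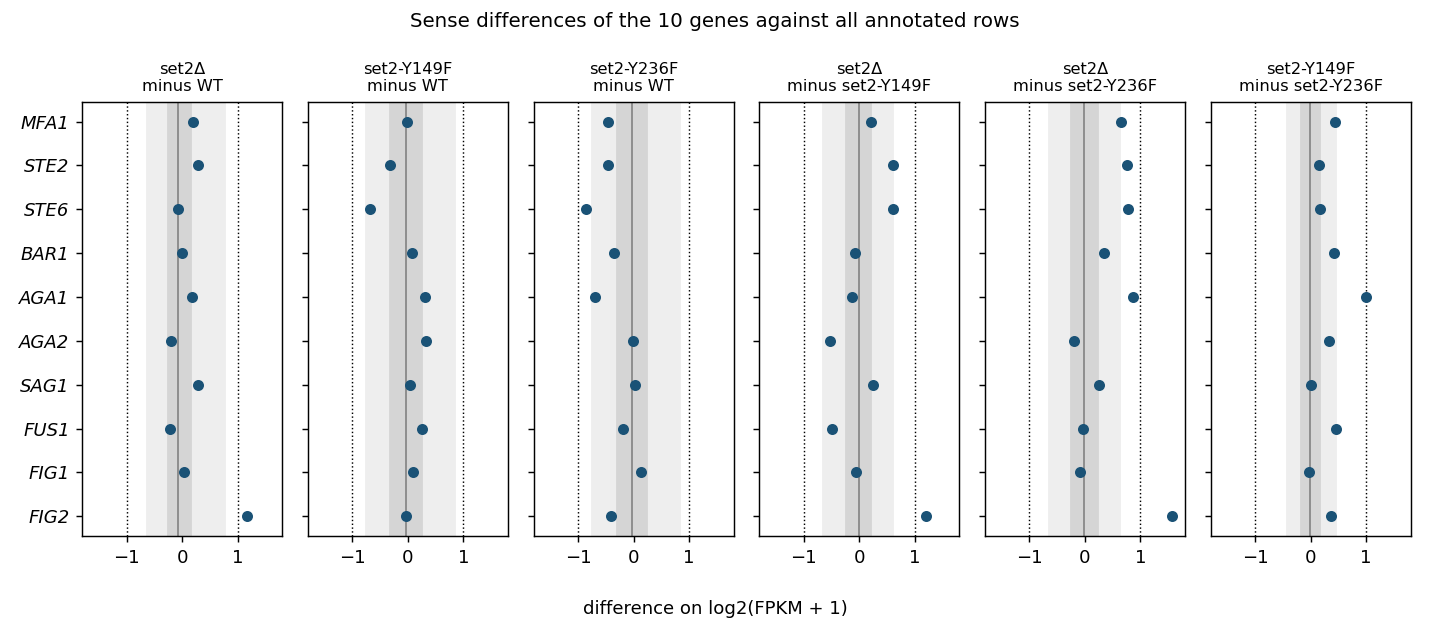
Difference of each of the 10 genes on log2(FPKM + 1) in 6 comparisons of strain means, with the range of all 6632 annotated rows behind them (light grey from the 5th to the 95th percentile, dark grey from the 25th to the 75th, line the median, dotted lines 2-fold). FIG2 lies past 2-fold in all 3 comparisons of set2Δ, and in the last panel most genes lie right of the median.

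Across the set, the means of set2-Y236F were the lowest relative to the WT. The median log2 difference of the 10 genes from the WT was 0.11 for set2Δ, 0.06 for set2-Y149F and -0.37 for set2-Y236F, where the median of all annotated rows was -0.07, -0.04 and -0.02. Higher means than the WT, of any size, were found for 7 of the 10 genes in set2Δ and 6 of the 10 in set2-Y149F, while 40.2% and 46% of all rows were higher. Lower means than the WT, of any size, were found for 8 of the 10 genes in set2-Y236F, with SAG1 and FIG1 the exceptions, while 52.4% of all rows were lower. Between the point mutants, 9 of the 10 genes had the higher mean in set2-Y149F, with FIG1 the exception, while 48.9% of all rows did. The median difference of the 10 was 0.35 there, against -0.01 over all rows. Some differences counted here are minute, such as AGA2 in set2-Y236F (-0.004) and SAG1 between the point mutants (0.008). Once the strains were scaled to the same median, these changed sign, to 0.09 and -0.003. So did STE6 in set2Δ (0.005) and MFA1 (0.07) and FIG2 (0.05) in set2-Y149F, so the counts at any size depend on the scaling. The 10 genes share regulators and were not measured independently of each other, and all values rest on the same strain means.

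The antisense transcripts of SAG1 and AGA1 were nearly as high in the point mutants as in set2Δ, whereas those of FIG2 and STE2 stood well below their set2Δ level there. As the authors selected the list for a higher level in set2Δ on these libraries, that direction is no result. Nor, through the shared WT mean, is the direction in the point mutants independent of it. The names of the antisense rows in the sheet were taken in alphabetical order, since the order as printed did not match the values. With sorted names, log2 of FPKM times width had a correlation of 0.904 across the 777 transcripts with the deposited log2 CPM, and of -0.00184 with the printed names. Transcripts are not independent replicates. The spans are those the authors assembled, not mapped start sites.

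The transcript antisense to SAG1 was the most abundant of the 4. It lies at chrX:442831-445424 on the plus strand, is 2594 bp long and covers 100% of the SAG1 coding region (chrX:442909-444861, minus strand). Its assembled 5′ end is 78 bp past the SAG1 stop codon and its 3′ end 563 bp upstream of the start codon, and it overlaps no other RefSeq gene. The means were 8.49 FPKM in WT cells, 57.5 for set2Δ, 50.3 for set2-Y149F and 52.9 for set2-Y236F. It ranked 5 among the 777 transcripts by its level in set2Δ. The point mutants thus had 85.5% and 90.6% of the rise seen in set2Δ, where the median over the 777 transcripts was 29.8% and 30.0%. The ratio of antisense to sense FPKM was 0.508 in the WT and 2.78, 2.92 and 3.09 in the mutants. The deposited counts did not follow this ratio, at 472 scaled reads per library for the antisense transcript and 688 for the sense coding region of 1953 bp. Sense and antisense FPKM may thus differ in scale, and which strand carried more RNA cannot be read from them. The rank of this transcript among the 777 rests on the same FPKM and carries the same limit. Sense SAG1 differed from the WT by 3.94 FPKM in set2Δ, and the antisense rise, on its own scale, was 49.0 FPKM over the coding region.

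The transcript antisense to AGA1 (chrXIV:705033-705867, minus strand) was at 3.37 FPKM in WT cells and level in the mutants, at 9.62 for set2Δ, 9.41 for set2-Y149F and 9.57 for set2-Y236F. It is 835 bp long, begins 9 bp before the AGA1 stop codon (coding region chrXIV:703699-705876, plus strand) and covers 38.3% of the gene. The point mutants had 96.7% and 99.3% of the set2Δ rise. The 2 point mutants, which differed 2.07-fold in AGA1 sense RNA, were thus at nearly the same antisense level. A TATAAA hexamer on the antisense strand lay in the window of this transcript, starting 35 bp before its 5′ end, and in that of SAG1, 109 bp before. In each line below the hexamer is in capitals within 30 bases of the antisense strand. TATAAA was present in 17.1% of the 777 windows of the same length, and in neither of the windows of FIG2 and STE2 shown above.
SAG1 antisense: ttacgaacaaaaTATAAAtttaatactatg
AGA1 antisense: tgtatatgtttaTATAAAtgaattaaattg

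The transcript antisense to FIG2 stood above 1 FPKM in set2Δ alone. It lies inside the gene (chrIII:268287-269650, minus strand, in the coding region chrIII:267434-272263, plus strand), is 1364 bp long and begins 45.9% of the way from the start codon. It was at 0.121 FPKM in WT cells, 8.29 for set2Δ, 0.695 for set2-Y149F and 0.576 for set2-Y236F. The set2Δ mean was 11.9 times that of set2-Y149F and 14.4 times that of set2-Y236F, and the point mutants had 7.03% and 5.57% of its rise. Sense and antisense FIG2 were therefore both at their highest in set2Δ. Spread over the coding region, the antisense rise in set2Δ comes to 2.31 FPKM, and the sense difference was 17.1 FPKM. The scales of these 2 values may differ, as for SAG1. The antisense transcript rested on 42.6 scaled reads per library on average, so its low means in 3 strains rest on few reads.

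The transcript antisense to STE2 (chrVI:82748-83599, minus strand) was the least abundant, at 0.283 FPKM in WT cells, 2.21 for set2Δ, 0.774 for set2-Y149F and 0.920 for set2-Y236F. It is 852 bp long, covers 65.7% of the coding region (chrVI:82580-83875, plus strand) and begins 276 bp before the stop codon. The point mutants had 25.5% and 33.1% of the set2Δ rise. The antisense FPKM was at most 0.0099 times the sense FPKM of STE2 in any strain, with the same limit of scale. The transcript had 15.8 scaled reads per library on average. On log2(FPKM + 1), all 4 transcripts were 2-fold higher in set2Δ, beside 83.5% of the 777, and 2 of 4, those of SAG1 and AGA1, in each point mutant, beside 33.7%. At a pseudocount of 0.1 in place of 1, all 4 were 2-fold higher in each point mutant.

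**Figure D3:**
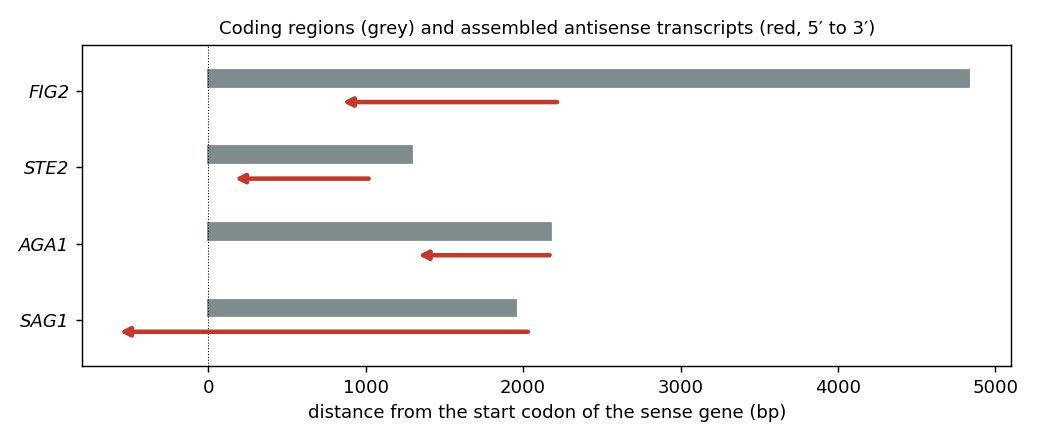
Coding regions of the 4 genes in grey and their assembled antisense transcripts as red arrows from 5′ to 3′, by distance in bp from the start codon. The antisense transcript of SAG1 runs across the whole gene, that of AGA1 begins 9 bp before the stop codon, and those of STE2 and FIG2 begin within the gene.

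**Figure D4:**
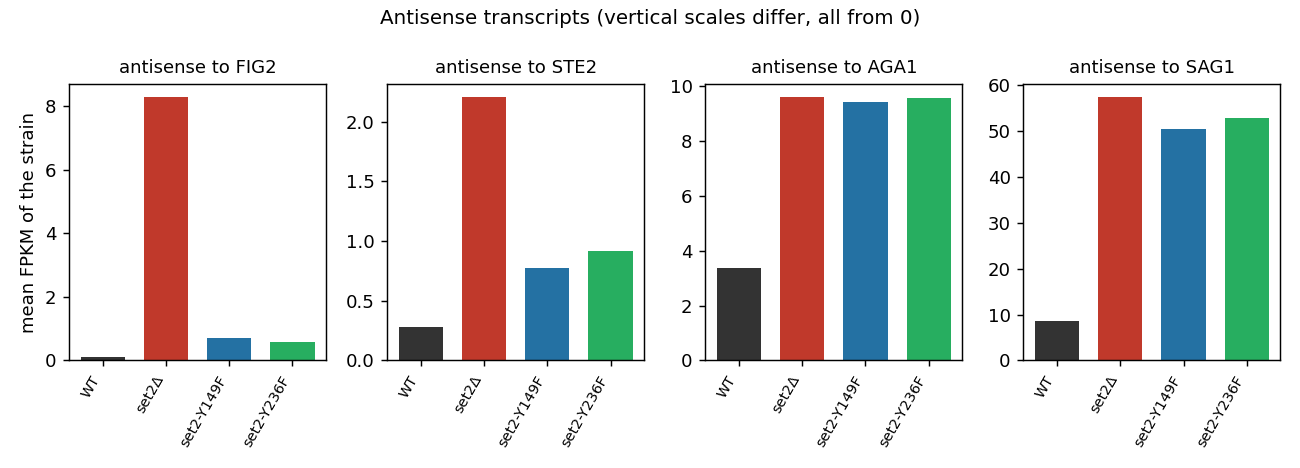
Mean FPKM of the 4 antisense transcripts in the 4 strains, as bars from 0 with a separate vertical scale for each transcript and no error bars, as there is 1 mean per strain. FIG2 reaches 8.29 FPKM in set2Δ only, whereas AGA1 lies between 9.41 and 9.62 and SAG1 between 50.3 and 57.5 in the 3 mutants.

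Other genes of the mating pathway were examined as 7 lists with 66 genes beyond the 10. Of the 66, 2 were 2-fold higher and 2 lower in set2Δ, beside 2.88% and 1.19% of all annotated rows. The Y149F mutant had 3 higher and 2 lower, beside 3.57% and 2.07%. The Y236F mutant had 1 and 1, beside 3.47% and 1.87%. Their median differences were -0.07, -0.05 and -0.13. In the signalling list, from the receptors to Ste12, 17 of 18 genes were within 2-fold in each mutant. The exception in both point mutants was FAR1, which arrests the cycle in G1 upon pheromone, at 28.9 FPKM in WT cells, 21.1 for set2Δ, 10.6 for set2-Y149F and 12.7 for set2-Y236F, while in set2Δ it was STE3 (log2 difference of -1.52). STE12, the transcription factor of the response, was at 36.4, 32.6, 24.99 and 18.9 FPKM, with log2 differences of -0.16, -0.53 and -0.91. STE11, the MAP kinase kinase kinase, was at 29.9 FPKM in WT cells, 60.7 for set2Δ, 50.4 for set2-Y149F and 45.8 for set2-Y236F. Its log2 difference in set2Δ, also 1.00 when rounded, lay just under the threshold. An FPKM of a whole gene does not separate full-length RNA from sense RNA that starts within the gene. Which of these the higher means of STE11 and FIG2 reflect was not tested.

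Of 24 pheromone-induced genes, 3 were 2-fold higher and 1 lower in set2Δ, beside 2.88% and 1.19% of all annotated rows. The Y149F mutant likewise had 3 and 1, beside 3.57% and 2.07%, and the Y236F mutant 1 and 1, beside 3.47% and 1.87%. The list medians were -0.05, 0.12 and -0.18. PRM2, a membrane protein gene, was low in the WT and higher in all 3 mutants, at 0.767, 5.67, 3.45 and 2.94 FPKM. PRM3, which acts in fusion of the nuclei, was at 1.16, 6.03, 4.54 and 2.58 FPKM and passed 2-fold in set2Δ (1.70) and set2-Y149F (1.36). PRM3 rested on only 28.2 scaled reads per library. FUS2, which acts in cell fusion, was at 2.69 FPKM in WT cells against 6.17, 8.65 and 5.97, past 2-fold in set2-Y149F (1.39). PRM5, a membrane protein gene that cell wall stress also turns on, was 2-fold lower in set2Δ alone, at 42.7 FPKM against 88.8 for the WT, 98.5 for set2-Y149F and 65.9 for set2-Y236F. FIG2 and these genes thus differed in which strains were high.

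All 6 genes that attenuate the response were within 2-fold of the WT in the 3 mutants. So were all 10 of a-factor synthesis and export and all 3 of α-factor processing. Most annotated rows were too. The share of rows past 2-fold was 2.88% upward and 1.19% downward for set2Δ. For set2-Y149F it was 3.57% and 2.07%, against 3.47% and 1.87% for set2-Y236F. The absence of calls in such short lists therefore does not set their genes apart. The attenuation list, which holds BAR1 and the regulator of G protein signalling SST2, had medians of 0.08, -0.03 and -0.26 in set2Δ, set2-Y149F and set2-Y236F. The medians of the a-factor list, with MFA1 and STE6, were -0.07, -0.14 and -0.18. STE14, which methylates the a-factor end, was at 41.6 FPKM in WT cells and 24.5, 22.5 and 29.0 in the mutants. The 14 genes of cell and nuclear fusion were within 2-fold apart from FUS2 in set2-Y149F. Among 10 mating-type regulators and silencing genes, HO, the endonuclease of mating-type switching, was lower in set2-Y149F, at 4.42 FPKM against 10.6 in the WT. With 1 call each, the lists of 14 and 10 genes are not set apart from all rows either. The reads of MAT, HML and HMR genes, which share sequence, cannot be assigned to a locus with certainty, and MATALPHA1 and HMLALPHA1 were not analysed here.

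**Figure D5:**
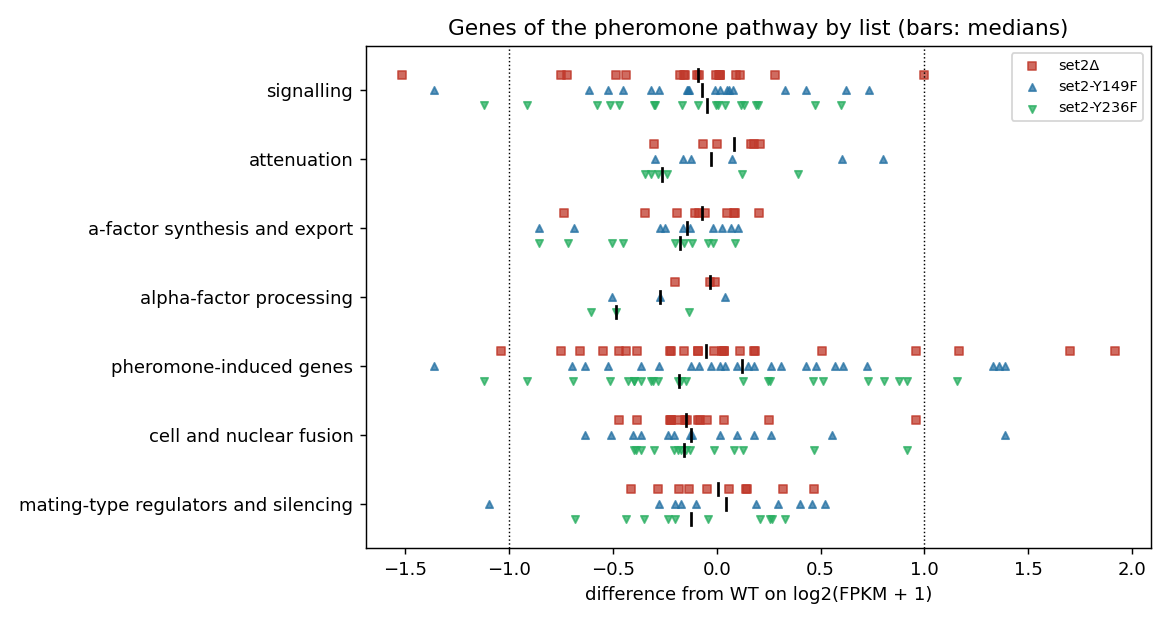
Difference from the WT on log2(FPKM + 1) of every gene in 7 lists of the mating pathway, with 1 point per gene and strain, black bars for the list medians and dotted lines at 2-fold. Most points lie within 2-fold, and PRM2, PRM3, FUS2 and FIG2 make up the points on the right.

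Genes with strain patterns nearest to that of FIG2 were BNR1, YLR419W and ESP1, at Euclidean distances of 0.38, 0.39 and 0.41 over the 3 differences from the WT among rows matched in RefSeq. BNR1, a formin that builds actin cables, was at 6.04 FPKM in WT cells and 11.9 in set2Δ, and at 5.93 and 5.34 in the point mutants. ESP1, the separase, was at 11.4, 20.6, 10.2 and 9.53 FPKM, with strains in that order. With 3 differences and a shared WT, such likeness is a description only. YLR419W has a listed antisense transcript, whereas BNR1 and ESP1 have none.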

How the data were processed

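RNA from 12 libraries of 4 strains was sequenced in stranded libraries. The authors deposited 1 mean FPKM per strain, and per the submitters' processing notes the tools were TopHat2 2.1.1, Cufflinks 2.2.1, Cuffdiff, Trimmomatic 0.38, HTSeq 0.13.5, bedtools 2.29.2 and SAMtools 1.10, with sacCer3 as the build. By the methods, antisense transcripts were assembled by Cufflinks without annotation. Which of these gave the levels of annotated genes is not stated there. The deposited log2 CPM served only to check the order of antisense names, and a deposited mean scaled count per library gave the reads behind a gene. Columns of the authors' own comparisons (fold changes, standard errors, p-values) were not used.

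Differences were computed on log2(FPKM + 1) in Python 3.11.15 with pandas 2.3.3 and called at 2-fold, as set2Δ, set2-Y149F and set2-Y236F against the WT and against each other. Gene symbols and positions came from RefSeq R64, which matched 5904 of 6632 rows. As the files hold no value per library, no limma fit was made. The step that makes the 2-fold calls was tested on simulated data with known folds and no noise added. Depth per library is not known, so no interval is given. Alternatives were pseudocounts of 0.1 and 10, scaling to equal medians, rows in RefSeq or with a mean of at least 1 FPKM only, and antisense names as printed. The genes named are the 10, their antisense transcripts, marker genes, list members past 2-fold (up to 4 per list) and the 3 rows nearest to a gene past 2-fold, while STE12, STE11, STE14 and MFA2 and the genes of the closing section were named after their values were seen. The 10 genes and all lists were chosen with earlier results of these data known. The lists are signalling (18 genes), attenuation (6), a-factor synthesis and export (10), α-factor processing (3), pheromone-induced genes (24), cell and nuclear fusion (14) and mating-type regulators and silencing (12, of which 10 were analysed).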

Additional observations from a re-analysis of the deposited data

How the results depend on the processing

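No paired analysis was possible because the columns hold 1 mean per strain, and leaving out single libraries was not run for the same reason. At a pseudocount of 10, FIG2 was no longer 2-fold higher in set2Δ than in the WT (log2 difference of 0.81) or set2-Y149F (0.83), which left 0 of the 10 genes in each of these comparisons, and AGA1 no longer differed between the point mutants (0.72, leaving 0). AGA1 was also lost when the strains were scaled to the same median, at 0.99, leaving 0. FIG2 stayed past 2-fold against set2-Y236F at every setting tried. Among the 66 further list genes, set2Δ had 5 higher at a pseudocount of 0.1, 0 higher and 0 lower at 10, and 4 higher and 1 lower after median scaling. In set2-Y149F there were 0 higher and 0 lower at 10, and in set2-Y236F 3 higher at 0.1 and 0 higher and 0 lower at 10. Of the 4 antisense transcripts, 4 were 2-fold higher in each point mutant at 0.1. At 10, only that of SAG1 was, so 1 was called in set2Δ and 1 in each point mutant. With the names as printed, 2 were called in set2Δ and 0 in each point mutant. Keeping only rows in RefSeq, or rows with a mean of at least 1 FPKM, changes no value, so the calls of the 10 genes could not move. The second filter drops FIG1. Only the share of all rows can change. In RefSeq rows, 2.05%, 3.27% and 3.07% were 2-fold higher in set2Δ, set2-Y149F and set2-Y236F. In rows with a mean of at least 1 FPKM these shares were 2.80%, 3.71% and 3.63%. The loss of calls at a pseudocount of 10 follows from its construction, as it shrinks differences of low means. Depth limits FIG1, PRM3, MF(ALPHA)2 and the antisense transcripts of STE2 and FIG2.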

Other observations

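Antisense transcripts opposite other genes of the pathway differed in how high they stood in the point mutants. Of the 66 further list genes, 7 (10.6%) have a listed antisense transcript, beside 10.4% of all annotated rows. The transcript antisense to STE12 was at 0.415 FPKM in WT cells, 5.98 for set2Δ, 1.07 for set2-Y149F and 1.22 for set2-Y236F. That of PTP3, a phosphatase of the MAP kinase, was at 1.56, 13.8, 2.85 and 3.33, and that of KAR3, a motor of nuclear fusion, at 4.08, 11.2, 4.98 and 5.56. The longer of the pair antisense to SPA2, a scaffold of polarized growth, was at 0.286 FPKM in WT cells and 4.48 in set2Δ, and at 0.290 and 0.342 in the point mutants, and the shorter was at 0.165, 1.89, 0.0533 and 0.179. The pair antisense to STE20, a kinase of the pathway, was at 0.840, 3.10, 1.20 and 1.72 FPKM and at 0.579, 2.90, 0.984 and 0.741. The point mutants were nearer to set2Δ in that of AXL1, a protease of a-factor maturation, at 0.109, 2.06, 1.29 and 1.36 FPKM. That of PTP2, another phosphatase, was at 0.406, 2.43, 1.20 and 1.04. These levels in set2Δ are those by which the authors chose the list.

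The transcripts of SAG1 and AGA1, which begin past or close to the stop codon, were nearly as high in the point mutants as in set2Δ. Among all 777, 51 (6.56%) had at least 80% of the set2Δ rise in both point mutants, and 59 (7.59%), among them that of FIG2, had under 10% in both. Those with a 5′ end at or past 95% of the coding region, 164 transcripts, had a median of 39.5% of the set2Δ rise for set2-Y149F and 42.3% for set2-Y236F. The 610 with an earlier 5′ end had medians of 27.2% and 26.9%. The quartiles overlapped widely, at 21.2% to 63.9% and 14.6% to 48.5% in set2-Y149F. The place of the split was chosen after the values of the 4 transcripts were seen, and this is a description across transcripts with no test.

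ASG7, an a-specific gene that lies next to SET2 on chromosome X, was at 30.9 FPKM in WT cells, 29.0 for set2Δ, 43.5 for set2-Y149F and 43.0 for set2-Y236F.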
